A study of Homo sapiens with 8 samples.

Results

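The collagen genes were followed across 2 established human ovarian carcinoma cell lines, each grown as bulk cells and as spheres. The members were all genes of the deposited count table whose symbol reads COL, digits, A and digits, which gave 41 of 20339 genes. The cultures were OVCAR3 cells with a control background (OVCAR3-CTR) or with MGP disrupted by CRISPR-Cas9 through guides against its first exon (OVCAR3-MGPKO), at passage 4, and COV318 cells carrying an empty lentiviral vector (COV318-CTR) or one that expresses MGP (COV318-MGP), at passage 18. Each of these 4 was sequenced once as adherent bulk cells and once as spheres enriched for ovarian cancer stem cells (OCSC), so there were 8 libraries and 1 per condition. With no replicates no test of a condition was possible, and every interval below covers counting error only. Whether an OVCAR3-MGPKO library held 1 clone or several was not given in the sources used here. By the methods of the study, adherent cells of the lines grew in different media with serum. Spheres of cell lines grew in a medium listed with growth factors and without serum. Growth form and medium therefore cannot be told apart between cultures. Line and passage cannot be told apart either, nor can line and medium in bulk cells.

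Collagens are secreted or membrane-bound proteins in which 3 chains wind into a triple helix, and the chains of a trimer are often the products of different genes. Fibrillar collagens form the fibrils of connective tissue, type IV collagens form the network of basement membranes, type VI collagens form beaded filaments around cells, and FACIT collagens decorate the surface of fibrils. Transmembrane collagens span the plasma membrane, and the multiplexins COL15A1 and COL18A1 sit in basement membrane zones. In ovarian tumours most fibrillar collagen is laid down by stromal fibroblasts, while the carcinoma cells themselves make basement membrane components. MGP, matrix Gla protein, is a small secreted inhibitor of calcification of the extracellular matrix. The 41 members fell into 10 fibrillar, 6 type IV, 5 type VI, 3 short-chain, 8 FACIT or related, 4 transmembrane and 2 multiplexin genes, COL7A1 of the anchoring fibrils, and COL26A1 and COL28A1, which were listed as other. COL11A2, COL20A1 and COL22A1 were listed in these classes and were absent from the count table, so they have no values here.

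Several members lie beside each other in the genome. In the GENCODE annotation of hg38, COL4A1 and COL4A2 on chromosome 13, COL4A5 and COL4A6 on chromosome X, and COL4A3 and COL4A4 on chromosome 2 were transcribed away from each other. COL6A1 and COL6A2 followed each other on chromosome 21, and COL3A1 and COL5A2 on chromosome 2 ended toward each other. Of the genes with the highest level in a library, 4 lie at chr21:45405165-45513720 on the plus strand (COL18A1), chr21:45981770-46005050 on the plus strand (COL6A1), chr7:101362875-101559024 on the plus strand (COL26A1) and chr13:110148963-110307157 on the minus strand (COL4A1). RefSeq start windows on GRCh38.p14, from 250 bases before to 50 bases after the start, matched 31 of the 41 members. The RefSeq starts of COL4A1 and COL4A2 were 127 bases apart, so that their windows shared 226 bases, and those of COL4A6 and COL4A5 were 380 bases apart with 121 shared bases. One window is printed for each of these type IV pairs, because the levels of their genes are compared below, and one for COL11A1, which had the lowest log2FC of the members in COV318-MGP. The COL4A1 window lies at chr13:110307108-110307407 on the minus strand, the COL4A6 window at chrX:108439409-108439708 on the minus strand, and the COL11A1 window at chr1:103108473-103108772 on the minus strand. Each is written in the direction of its gene, and capitals mark the CCAAT box, the GC box (GGGCGG) and the TATA box (TATAAA) on either strand.
COL4A1: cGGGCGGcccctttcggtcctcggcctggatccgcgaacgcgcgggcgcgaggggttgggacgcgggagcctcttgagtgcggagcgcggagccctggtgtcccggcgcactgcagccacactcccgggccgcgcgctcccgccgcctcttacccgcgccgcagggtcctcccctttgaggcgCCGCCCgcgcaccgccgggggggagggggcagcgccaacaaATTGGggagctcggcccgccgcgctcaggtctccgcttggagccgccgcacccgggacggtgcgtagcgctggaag
COL4A6: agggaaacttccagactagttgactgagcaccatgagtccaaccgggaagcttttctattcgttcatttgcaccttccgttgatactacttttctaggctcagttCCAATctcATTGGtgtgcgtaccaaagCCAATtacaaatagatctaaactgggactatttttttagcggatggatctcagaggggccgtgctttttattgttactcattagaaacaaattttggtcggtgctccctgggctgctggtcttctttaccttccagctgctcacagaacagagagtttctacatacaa
COL11A1: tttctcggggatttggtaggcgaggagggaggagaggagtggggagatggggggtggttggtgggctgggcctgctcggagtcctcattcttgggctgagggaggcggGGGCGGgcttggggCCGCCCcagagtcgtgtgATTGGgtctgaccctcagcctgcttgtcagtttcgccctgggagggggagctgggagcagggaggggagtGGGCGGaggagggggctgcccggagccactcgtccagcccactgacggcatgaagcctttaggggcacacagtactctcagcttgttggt
The COL4A1 window held 1 CCAAT box and 2 GC boxes, with a GC content of 76.7%. The COL4A6 window held 3 CCAAT boxes and no GC box, with a GC content of 43.7%, and RefSeq gave a further COL4A6 start that is not shown. The COL11A1 window held 1 CCAAT box and 3 GC boxes, with a GC content of 66%. The TATA box was in none of the 3 windows shown. Of 35116 windows of the same length, 34.6% held the CCAAT box, 45% held the GC box and 11.5% held the TATA box, and the median GC content was 58.7%.

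Library totals ran from 12294591 to 37393919 counts, and collagen genes took between 0.0824% and 0.53% of them. MGP had 0 counts in both OVCAR3 bulk libraries, 1 count in OVCAR3-CTR OCSC and 2 in OVCAR3-MGPKO OCSC, so it did not tell the OVCAR3 libraries apart, and these counts could not check the MGPKO label. The methods of the study name PCR and Sanger sequencing for finding knockout clones. Its results report further checks of the knockout by RT-qPCR, western blot and immunofluorescence, and describe MGP protein as readily detectable in OVCAR3. These checks lie outside these data. The near absence of MGP RNA from the OVCAR3-CTR libraries differs from that description, and the reason was not tested. MGP had 1 and 0 counts in COV318-CTR bulk and OCSC and 40393 and 28694 in COV318-MGP. The 2 COV318-MGP libraries stood apart. Across all genes their log2 normalized counts had a Pearson r of 0.747 to 0.757 with COV318-CTR, whereas OVCAR3 and COV318-CTR had 0.798 to 0.806, and across the 41 collagen genes r with COV318-CTR was 0.461 to 0.55, against 0.921 between the COV318-CTR cultures and 0.94 between the COV318-MGP cultures. KRT7, an epithelial keratin, and PAX8 and SOX17, transcription factors of the Mullerian lineage, were at 0 counts in both COV318-MGP libraries, and 1 of 4 Mullerian markers was above 3 counts there against 4 of 4 in each other library. Of the 6 epithelial markers 4 were above 3 counts in each COV318-MGP library, against 6 in each COV318-CTR library. The 6 markers summed to 41756 normalized counts in COV318-CTR bulk and 1977 in COV318-MGP bulk, but to 8517 and 8466 in OCSC. In OCSC KRT8 was called higher in COV318-MGP, while EPCAM, KRT7, KRT19 and CDH1 were called lower. Of 4 mesothelial markers, 4 passed 3 counts in the COV318-CTR libraries and 0 or 1 did in COV318-MGP. The 2 endothelial markers summed to 640.5 to 671 normalized counts in COV318-CTR and at most 7.16 in COV318-MGP. Most of the COV318-CTR sum was VWF, with 663 and 627 in bulk cells and OCSC, while PECAM1 had 7.54 and 13.4. CD68, the leukocyte marker, reached at most 85.9 normalized counts in a library. Fibroblast or pericyte markers, which could mark other collagen-making cells, were low throughout. Of 7 in the table, 5 were above 3 counts in both COV318-MGP libraries, with summed normalized counts of 455 to 537, against 4 to 6 and 370 to 799 in COV318-CTR and 2 to 4 and 147 to 278 in OVCAR3. These markers did not move one way. In counts of COV318-CTR and COV318-MGP bulk and OCSC, PDGFRA had 2 and 222 and then 4 and 42, and ACTA2 had 79 and 203 and then 8 and 133. THY1 had 56 and 0 and then 37 and 0, PDGFRB had 118 and 15 and then 2 and 10, and RGS5 had 1192 and 511 and then 193 and 128. The part of these differences in the collagen values was not tested. The identity of the cultures labelled COV318-MGP as COV318 was not tested either and is in question on these values, and MGP expression cannot be told apart from whatever else differs between them and COV318-CTR. All results on the COV318-MGP libraries, in MGP comparisons and in cultures alike, rest on these 2 libraries. The comparisons among the other 6 use them only through the size factors, which were set over all 8 libraries.

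Normalized counts below are counts divided by a size factor of the library. A gene was tested in a comparison when the higher of its 2 counts reached 50, and it was called higher or lower when its log2FC, on log2 of the normalized count plus 1, reached 1 in size. Values of a line are given in the order CTR bulk, MGP-manipulated bulk, CTR OCSC and MGP-manipulated OCSC. These are levels in RNA of whole cultures, in which fewer expressing cells and less RNA per cell cannot be told apart.

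Of the 41 collagen genes, 35 reached 50 counts in at least 1 library and 28 reached 200 normalized counts. Of all 20339 genes, 15855 reached 50 counts in at least 1 library. Between 18 and 27 members reached 50 counts in a library. These were 43.9% to 65.9% of the members, where 55.7% to 65.3% of all genes did so. COL1A2, COL5A3, COL6A3, COL6A6, COL10A1 and COL15A1 stayed under 50 counts in all 8. Both lines therefore carried RNA of many collagen types, and a small number of genes made up most of the level in each library.

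**Figure D1:**
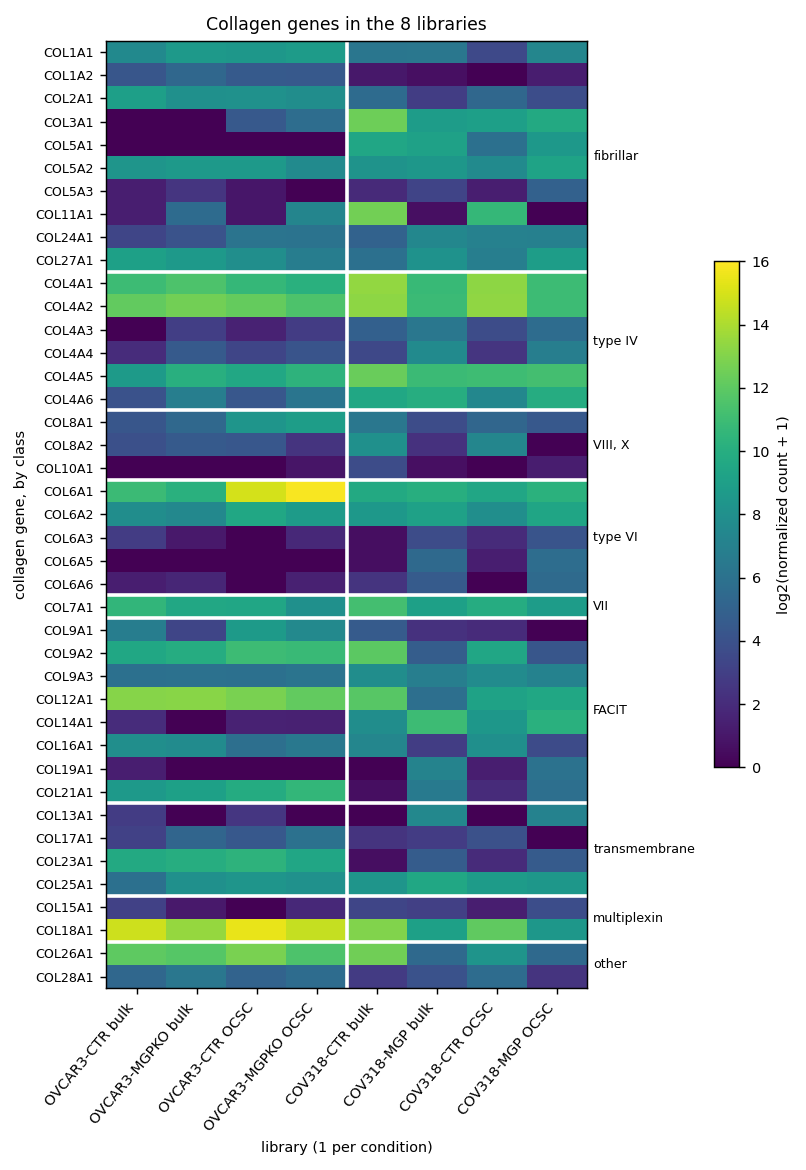
Heat map of log2(normalized count + 1) for the 41 collagen genes (rows, by class) in the 8 libraries (columns, 1 per condition). COL18A1 is bright in the 4 OVCAR3 libraries, and COL6A1 is brightest in the 2 OVCAR3 OCSC libraries. COL11A1, COL4A1 and COL4A2 are brightest in the 2 COV318-CTR libraries, and COL3A1 is brightest in COV318-CTR bulk.

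The summed collagen level was higher in OCSC than in bulk cells of OVCAR3, and lower in COV318-MGP than in COV318-CTR. On the scale of normalized counts per kilobase of exon, summed over the members, OVCAR3 had 6783, 4712, 15468 and 16132. COV318 had 8030, 1525, 3037 and 1576. The OVCAR3 OCSC sums were the highest of the 8, and the 2 COV318-MGP sums were the lowest.

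COL18A1, whose C-terminal fragment is endostatin, led both OVCAR3 bulk libraries. It made up 49.4% of the summed collagen level per kilobase in OVCAR3-CTR bulk and 28.6% in OVCAR3-MGPKO bulk, followed by COL26A1 at 20.1% and 24.2%. In OVCAR3 OCSC the leading gene was COL6A1, at 37.3% in OVCAR3-CTR and 64.4% in OVCAR3-MGPKO, with COL18A1 next at 34% and 18.2%. In COV318-CTR bulk the level per kilobase was spread over COL26A1 (23.3%), COL9A2 (12%), COL18A1 (12%), COL3A1 (10.3%) and COL4A1 (9.16%). In COV318-CTR OCSC COL4A1 (22.8%) and COL4A2 (18%) led. In the COV318-MGP libraries the shares were more even, and COL14A1 led in bulk cells at 12.7% and COL6A1 in OCSC at 13.5%. With the longest transcript as length the leader was the same in both OVCAR3 bulk libraries, both OVCAR3 OCSC libraries and COV318-CTR bulk, while COL14A1 ranked 4th in COV318-MGP bulk, COL4A1 ranked 2nd in COV318-CTR OCSC and COL6A1 ranked 4th in COV318-MGP OCSC.

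The lines differed in which collagens they carried. Between the control bulk cells, 29 members were tested. OVCAR3-CTR was higher for 9, where 21.7% of all tested genes were called higher, and lower for 15, where 27.5% were called lower. Between the control OCSC, 27 members were tested, 14 were higher in OVCAR3-CTR (28% of all tested genes) and 10 were lower (21.3%). In both cultures the members higher in OVCAR3-CTR were COL1A1, COL2A1, COL6A1, COL9A1, COL12A1, COL18A1, COL21A1, COL23A1 and COL27A1, and those lower were COL3A1, COL4A1, COL4A2, COL4A5, COL4A6, COL8A2, COL9A3, COL11A1 and COL14A1. COL8A1 and COL9A2 were lower in OVCAR3-CTR bulk and higher in OVCAR3-CTR OCSC. Over all 8 libraries, 6 of the 35 members that reached 50 counts had every OVCAR3 library above every COV318 library (18.2% of all such genes) and 9 had every OVCAR3 library below (16.2%). Without the COV318-MGP libraries these were 7 (30.3% of all such genes) and 13 (32.1%).

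Among the type IV genes COL4A1 and COL4A2, whose chains form the common basement membrane trimer, COL4A1 had 1968, 2955, 1619 and 1150 normalized counts in OVCAR3 and 10789, 1758, 10172 and 2014 in COV318. COL4A2 had 4654, 6102, 4675 and 2961 in OVCAR3 and 9832, 1949, 10562 and 1994 in COV318. Both were thus highest in the 2 COV318-CTR libraries. The COL4A1 values in COV318-MGP lay within the OVCAR3 range and the COL4A2 values lay below it. COL4A5 and COL4A6 encode chains that can share a trimer in basement membranes of smooth muscle and skin. COL4A5 had 418, 1088, 786 and 1271 normalized counts in OVCAR3 and 5257, 1924, 2110 and 2333 in COV318. COL4A6 had 15.4, 116, 19.6 and 73.4 in OVCAR3 and 736, 987, 166 and 978 in COV318, so for both genes the lines did not overlap. COL4A3 and COL4A4, which join COL4A5 in kidney basement membranes, were lower. COL4A3 reached at most 6.89 normalized counts in OVCAR3 and had 28.5, 82.0, 11.9 and 50.1 in COV318. COL4A4 reached at most 21.8 in OVCAR3 and had 10.2, 205, 4.46 and 113 in COV318.

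Several fibrillar genes separated the lines widely. COL3A1, the type III chain of reticular fibres, had 0, 0, 23 and 58 counts in OVCAR3 and 10409, 837, 346 and 586 counts in COV318. It was at least 1212-fold lower in OVCAR3-CTR bulk than in COV318-CTR bulk, against a floor of 3 counts per library, and its log2FC was the 2nd lowest of 13995 tested genes. Its value in OVCAR3-MGPKO OCSC was the highest of the line. COL5A1, a chain of type V collagen that helps start fibrils, had 0 counts in all 4 OVCAR3 libraries and 1292, 1049, 39 and 263 counts in COV318, at least 150.4-fold lower in OVCAR3-CTR bulk. Its partner COL5A2 was present in both lines, with 327, 401, 403 and 198 normalized counts in OVCAR3 and 298, 347, 199 and 611 in COV318, and the lines overlapped. COL11A1, a minor fibril chain of cartilage that is also known in activated fibroblasts, had 1, 42, 1 and 173 counts in OVCAR3 and 11569, 1, 1094 and 0 counts in COV318. The high values were those of COV318-CTR, and both COV318-MGP libraries were at the level of OVCAR3-CTR. COL1A1, the major type I chain, had 193, 388, 360 and 442 normalized counts in OVCAR3 and 77.0, 80.3, 10.4 and 162 in COV318. Its partner COL1A2 had 12, 34, 24 and 24 counts in OVCAR3 and between 0 and 2 counts in COV318, and the ratio of COL1A1 to COL1A2 per kilobase was 11.9 or more in every library but COV318-CTR OCSC, where the counts were 7 and 0. COL2A1, the cartilage type II chain, had 527, 262, 274 and 226 normalized counts in OVCAR3 and 46.9, 6.6, 40.1 and 12.9 in COV318. COL27A1 had 535, 383, 243 and 110 in OVCAR3 and 58.2, 280, 113 and 481 in COV318, and here the lines overlapped.

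Of the FACIT and related genes, 4 of 8 had lines that did not overlap, and so did 2 of the 4 transmembrane genes, while COL9A1, COL9A2, COL16A1, COL19A1, COL13A1 and COL17A1 overlapped. Over all 15855 genes compared in this way, 18.2% had every OVCAR3 library above every COV318 library and 16.2% had every OVCAR3 library below. With so few genes in a class, these counts are not read as a trait of the class. COL12A1, a long FACIT chain bound to type I fibrils, had 8641, 9140, 6927 and 4490 normalized counts in OVCAR3 and 3613, 56.1, 587 and 726 in COV318. COL21A1, a related short chain, had 389, 540, 930 and 1577 in OVCAR3 and 1, 174, 2 and 39 raw counts in COV318. COL23A1, a transmembrane collagen, had 853, 986, 1276 and 721 normalized counts in OVCAR3 and 1, 45, 2 and 16 raw counts in COV318. For these 3 genes every OVCAR3 library lay above every COV318 library. The log2FC of OVCAR3-CTR against COV318-CTR bulk was 7.98 for COL21A1 (95% Clopper-Pearson interval of the count ratio 7 to 14.80) and 9.12 for COL23A1 (8.14 to 15.93), each against a single count in COV318-CTR. COL14A1, a FACIT chain of dense connective tissue, went the other way, with 0 to 2 counts in OVCAR3 and 229, 1966, 349 and 1132 normalized counts in COV318. COL9A3 had 58.6, 62.0, 58.8 and 71.7 in OVCAR3 and 233, 115, 214 and 135 in COV318. COL25A1, a transmembrane collagen of neurons and muscle, had 60.1, 257, 323 and 275 in OVCAR3 and 328, 742.5, 446 and 355 in COV318, where the lowest COV318 and the highest OVCAR3 values were close.

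The COV318-MGP and COV318-CTR libraries differed in most tested collagens. In bulk cells 31 members were tested, of which 10 were higher in COV318-MGP (21.9% of all tested genes) and 15 lower (24.3%), and the median log2FC was -0.27 over the members and -0.05 over all tested genes. In OCSC 25 were tested, 9 were higher (23.7%) and 9 lower (23.4%), with medians of 0.14 and 0.02. Called higher in both cultures were COL4A4, COL13A1, COL14A1 and COL27A1, 4 of the 10 bulk and of the 9 OCSC calls. Called lower in both were COL4A1, COL4A2, COL7A1, COL8A2, COL9A2, COL11A1, COL16A1, COL18A1 and COL26A1, 9 of the 15 bulk and all 9 OCSC calls. The share of all tested genes called alike in both cultures is not given here. These shared calls are therefore not read as particular to the collagens.

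Among the members lower in COV318-MGP, COL11A1 had the lowest log2FC. Its counts were 11569 in COV318-CTR bulk and 1 in COV318-MGP bulk, a log2FC of -11.97 (-18.77 to -10.99), the 13th lowest of 15029 tested genes. In OCSC its counts were 1094 and 0, which is at least 379-fold lower. COL26A1, an emilin-related protein known from the reproductive tract, had 4228, 3543, 6953 and 3008 normalized counts in OVCAR3, and in COV318-CTR and COV318-MGP 10757 and 79 counts in bulk cells, a log2FC of -7.03 (-7.40 to -6.74), and 211 and 30 in OCSC, a log2FC of -2.84. COL9A2, a chain of the FACIT type IX collagen of cartilage, had 7553 and 46 counts in bulk cells, a log2FC of -7.27 (-7.78 to -6.91), and 466 and 13 counts in OCSC, a log2FC of -5.14 (-6.14 to -4.43). COL18A1 had 8159 and 543 normalized counts in bulk cells, with a log2FC of -3.91 (-4.00 to -3.82), and 4402 and 352 in OCSC, with a log2FC of -3.64. For COL26A1, COL9A2 and COL18A1 both COV318-MGP libraries were the lowest of the 8 in normalized counts. COL8A2, a short-chain network collagen of corneal basement membrane, had 5 to 21 counts in OVCAR3, and in COV318-CTR and COV318-MGP it had 480 and 7 counts in bulk cells and 109 and 0 in OCSC, where it was at least 37.7-fold lower. COL16A1, a FACIT collagen described for OVCAR3 with the cultures below, had 303 and 12 counts in bulk cells and 170 and 8 in OCSC, with log2FC of -4.43 and -4.35. The type IV partners moved by like amounts, with log2FC of -2.62 for COL4A1 and -2.33 for COL4A2 in bulk cells and -2.34 and -2.40 in OCSC. COL7A1, the chain of the anchoring fibrils of skin, had 2346 and 552 normalized counts in bulk cells, a log2FC of -2.09, and 951 and 464 in OCSC, a log2FC of -1.03.

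Some were called lower in bulk cells and not in OCSC. COL12A1 had 3613 and 56.1 normalized counts in bulk cells, a log2FC of -5.98 (-6.31 to -5.73), and 587 and 726 in OCSC, a log2FC of 0.31. COL3A1 had 5606 and 460 in bulk cells, a log2FC of -3.60 (-3.71 to -3.50), and 514 and 839 in OCSC, a log2FC of 0.71. In both genes the COV318-CTR OCSC value was already far below the COV318-CTR bulk value. COL4A5 had a log2FC of -1.45 in bulk cells and 0.14 in OCSC, and COL2A1, COL8A1 and COL9A3 were the other members called lower in bulk cells and not in OCSC. COL2A1 and COL8A1 were under 50 counts in OCSC, with 27 and 9 and with 26 and 14 counts. COL9A3 had a log2FC of -1.01 in bulk cells, which ran from -1.02 to -0.72 over the alternatives and was under 1 in size with TMM and CPM scaling, and -0.67 in OCSC. Whether these differences between cultures exceed replicate error was not tested.

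Among the members higher in COV318-MGP, COL13A1, a transmembrane collagen of cell adhesion sites and the neuromuscular junction, had at most 5 counts in OVCAR3, and in COV318-CTR and COV318-MGP it had 0 and 323 counts in bulk cells and 0 and 96 in OCSC, at least 109.9-fold and 30.8-fold higher. COL19A1, a FACIT collagen with at most 1 count in OVCAR3, had 0 and 261 counts in bulk cells, at least 88.8-fold higher, and 1 and 45 in OCSC, under the minimum of 50. COL14A1 had a log2FC of 3.09 (2.95 to 3.25) in bulk cells and 1.69 (1.49 to 1.91) in OCSC. COL4A4 had 19 and 372 counts in bulk cells, a log2FC of 4.19 (3.66 to 5.07), and 3 and 79 in OCSC, a log2FC of 4.39 (3.07 to 6.97). COL21A1 had 1 and 174 counts in bulk cells, a log2FC of 5.97 (4.98 to 12.79). COL6A5, a type VI chain of skin and lung, had 0 counts in all OVCAR3 libraries, 1 and 36 in COV318-CTR and COV318-MGP OCSC and 1 and 77 in bulk cells, a log2FC of 4.82 (3.78 to 11.62). COL27A1, a fibrillar chain of developing cartilage, had log2FC of 2.25 and 2.08 in bulk cells and OCSC. In OCSC alone COL1A1 (3.84), COL5A1 (2.68), COL4A6 (2.55), COL5A2 (1.61) and COL6A2 (1.45) were called higher, and COL4A3 (1.49), COL24A1 (2.39) and COL25A1 (1.18) were called higher in bulk cells beside COL6A5, COL19A1 and COL21A1. Of these, COL4A3, COL6A5, COL19A1 and COL21A1 were under 50 counts in OCSC, with higher counts in COV318-MGP than in COV318-CTR there too.

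**Figure D2:**
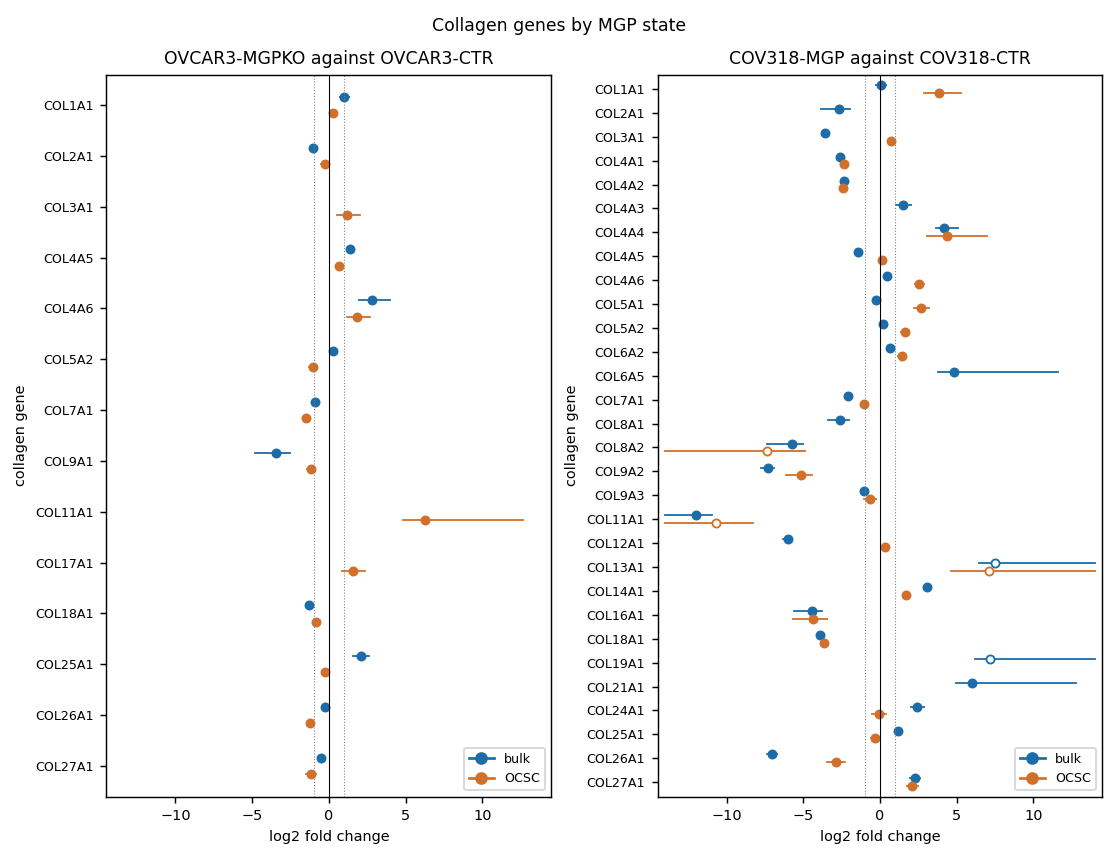
log2 fold change (horizontal axis) of each collagen gene called in at least 1 culture, MGPKO against CTR in OVCAR3 on the left and MGP against CTR in COV318 on the right; blue is bulk cells, orange is OCSC, bars are 95% counting intervals (drawn up to 14 in size), open circles have 0 counts in 1 library, and dotted lines mark a size of 1. Points lie between -3.44 and 6.30 in OVCAR3, while in COV318 they spread from -11.97 to 7.48. The values of open circles depend on the 1 added to each normalized count. So do those of points with 1 count in a library, among them 6.30 and -11.97.

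In OVCAR3-MGPKO the differences were fewer. In bulk cells 22 members were tested, 4 were higher (8.97% of all tested genes) and 3 lower (6.34%), with a median log2FC of 0.15 over the members and -0.01 over all tested genes. The split was 5 and 2 with counts scaled to the library total. In OCSC 27 were tested, 4 were higher (4.01%) and 5 lower (3.89%), with medians of -0.10 and -0.05. COL4A6 alone was called higher in both cultures and COL9A1 alone was called lower in both. COL4A6 had 10 and 101 counts in bulk cells, a log2FC of 2.83 (1.97 to 4.02), and 21 and 84 counts in OCSC, a log2FC of 1.85 (1.2 to 2.67). Its head-to-head neighbour COL4A5 had log2FC of 1.38 and 0.69. COL9A1, a chain of type IX collagen, had 71 and 8 counts in bulk cells, a log2FC of -3.44 (-4.84 to -2.52), and 454 and 211 counts in OCSC, a log2FC of -1.2 (-1.44 to -0.96). COL11A1 had 1 and 173 counts in OCSC, a log2FC of 6.30 (4.84 to 12.65), the 3rd highest of 12682 tested genes. In bulk cells its counts were 1 and 42, under the minimum of 50. COL18A1 had 28352 and 11418 normalized counts in bulk cells, a log2FC of -1.31 (-1.35 to -1.28), and 44458 and 24902 in OCSC, a log2FC of -0.84, which was not called. COL1A1 (1.01), COL25A1 (2.08) and COL2A1 (-1.01) completed the calls in bulk cells. In OCSC COL3A1 (1.2) and COL17A1 (1.55), a transmembrane collagen of the epidermal junction, were higher, and COL5A2 (-1.03), COL7A1 (-1.47), COL26A1 (-1.21) and COL27A1 (-1.13) were lower. COL1A1 and COL2A1 in bulk cells and COL5A2 in OCSC lay just past the threshold, and COL28A1 in bulk cells (0.99) just short of it.

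The MGP states of the lines were opposite manipulations, and no control is shared between them, so the members called in both can be set side by side. In bulk cells COL18A1 (log2FC of -1.31 in OVCAR3-MGPKO and -3.91 in COV318-MGP) and COL2A1 (-1.01 and -2.65) were lower in both and COL25A1 (2.08 and 1.18) was higher in both, while COL4A5 (1.38 and -1.45) was higher in the first and lower in the second. In OCSC COL4A6 (1.85 and 2.55) was higher in both, and COL7A1 (-1.47 and -1.03) and COL26A1 (-1.21 and -2.84) were lower in both. COL5A2 (-1.03 and 1.61) and COL27A1 (-1.13 and 2.08) were lower in OVCAR3-MGPKO OCSC and higher in COV318-MGP OCSC. COL11A1 was higher in OVCAR3-MGPKO OCSC (6.30) and at 0 counts in COV318-MGP OCSC. The OVCAR3 labels could not be checked by MGP, and the identity of the COV318-MGP cultures is in question, as given above. In COV318-MGP, 21.9% of all tested genes were called higher and 24.3% lower in bulk cells, and 23.7% and 23.4% in OCSC. The share of all tested genes called in both lines is not given here. These members are therefore not read as particular to the collagens.

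Growth as OCSC came with higher COL6A1, COL6A2 and COL8A1 in OVCAR3 and with lower COL3A1, COL5A1 and COL26A1 in COV318-CTR. In OVCAR3-CTR 22 members were tested, 8 were higher in OCSC (12.6% of all tested genes) and 3 lower (7.36%), with a median log2FC of 0.68 over the members and 0.12 over all tested genes. In OVCAR3-MGPKO 27 were tested, 9 were higher (6.51%) and 7 lower (5.21%), with medians of 0.18 and 0.06, and TMM factors gave 10 and 5. COL6A1, COL6A2, COL8A1, COL9A1, COL21A1 and COL24A1 were higher in both, 6 of the 8 and of the 9 calls. COL7A1, COL16A1 and COL27A1 were lower in both, 3 of the 3 and of the 7 calls. For these shared calls too, the share of all tested genes called alike is not given.

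COL6A1, the type VI chain that pairs with COL6A2 and COL6A3, had 1901 normalized counts in OVCAR3-CTR bulk and 31913 in OCSC, a log2FC of 4.07 (3.99 to 4.15), the 48th highest of 12377 tested genes. In OVCAR3-MGPKO it had 1163 and 57551, a log2FC of 5.63 (5.54 to 5.72), the 16th highest of 12758. In COV318 it stayed between 703 and 1180 normalized counts in all 4 libraries. COL6A2 had 231 and 737 normalized counts in OVCAR3-CTR bulk and OCSC, a log2FC of 1.67 (1.42 to 1.93), and 177 and 435 in OVCAR3-MGPKO, a log2FC of 1.29 (1.04 to 1.57). In COV318 COL6A2 had 366, 576, 244 and 667. COL6A3, whose chain completes the usual type VI trimer, had 4, 1, 0 and 3 counts in OVCAR3 and 1, 22, 2 and 12 in COV318. The RNA of the chains was thus far from equal, and the OVCAR3 OCSC libraries held the most COL6A1 of the 8.

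COL8A1, a short-chain network collagen of vessel walls, had 12 and 351 counts in OVCAR3-CTR bulk and OCSC, a log2FC of 4.07 (3.32 to 5.11), and 36 and 553 in OVCAR3-MGPKO, a log2FC of 3.52 (3.06 to 4.08). In COV318 it had 146, 22, 26 and 14 counts. COL9A1 had 71 and 454 counts in OVCAR3-CTR, a log2FC of 1.94, and 8 and 211 in OVCAR3-MGPKO, a log2FC of 4.19 (3.32 to 5.56). In COV318 it had 43, 7, 2 and 0 counts. Both were higher in each OCSC library than in either bulk library of the line. COL24A1, a fibrillar chain of bone and cornea, had 6 and 76 counts in OVCAR3-CTR and 14 and 77 in OVCAR3-MGPKO, with log2FC of 2.81 and 2.00. COL21A1 had log2FC of 1.26 and 1.54. COL9A2 had 732, 950.3, 2015 and 1875 normalized counts in OVCAR3. In OVCAR3-CTR COL9A2 (1.46) and COL25A1 (2.41) were also higher, while in OVCAR3-MGPKO COL18A1 (1.12), COL11A1 (1.63) and COL3A1 were higher, COL3A1 with 0 and 58 counts, at least 14.7-fold. COL7A1 had 1451 and 721 normalized counts in OVCAR3-CTR and 770 and 259 in OVCAR3-MGPKO, with log2FC of -1.01 and -1.57. COL16A1 had 236 and 56.9 in OVCAR3-CTR and 210.3 and 84.8 in OVCAR3-MGPKO, with log2FC of -2.03 and -1.30, and COL27A1 had -1.14 and -1.79. COL4A1 (-1.36), COL4A2 (-1.04), COL5A2 (-1.02) and COL12A1 (-1.03) were lower in OVCAR3-MGPKO OCSC, where OVCAR3-CTR had -0.28, 0.01, 0.30 and -0.32.

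In COV318-CTR more members were lower than higher. Of the members called in both controls, COL8A1 and COL9A2 were higher in OCSC in OVCAR3-CTR and lower in COV318-CTR, COL24A1 was higher in both and COL7A1 was lower in both. Of 26 members tested, 1 was higher in OCSC (5.83% of all tested genes) and 12 were lower (8.05%), with a median log2FC of -0.78 over the members and -0.08 over all tested genes. COL24A1 was the one called higher, with 59 and 86 counts and a log2FC of 1.97 (1.51 to 2.51). COL26A1 had 5794 and 314 normalized counts, a log2FC of -4.20 (-4.41 to -4.01). COL5A1 had 696 and 58.0, a log2FC of -3.56 (-4.08 to -3.13), and COL3A1 had 5606 and 514, a log2FC of -3.44 (-3.61 to -3.29). COL1A1 (-2.77), COL12A1 (-2.62), COL9A2 (-2.55), COL4A6 (-2.14), COL11A1 (-1.94), COL4A5 (-1.32), COL7A1 (-1.30), COL4A3 (-1.2) and COL8A1 (-1.01) were the others. COL4A1 and COL4A2, at -0.08 and 0.10, were about level between the cultures. The COV318-CTR OCSC library had 12294591 counts and the bulk library 37393919, and counting intervals were wider for the former. In COV318-MGP 25 members were tested, 2 were higher in OCSC (6.72%) and 2 lower (6.42%), with a median of -0.01 over the members and over all tested genes. These were COL12A1 with 102 and 507 counts, a log2FC of 3.67 (3.38 to 4.01), COL1A1 at 1.0, COL19A1 at -1.14 and COL25A1 at -1.06. Scaling to library totals gave 1 higher and 4 lower, and TMM factors and factors set within the pair gave 1 and 2.

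Ratios of chains that can share a trimer were compared within each library, and for COL6A1 over COL6A2 and COL4A1 over COL4A2 the lines did not overlap. On the scale of counts per kilobase of exon, COL6A1 over COL6A2 was 7.92 (6.68 to 9.45), 6.33 (5.34 to 7.55), 41.7 (38.9 to 44.9) and 127 (116.6 to 139) in OVCAR3. In COV318 the ratio was between 1.70 and 2.78. COL4A1 over COL4A2 was between 0.455 and 0.637 in OVCAR3 and between 1.19 and 1.44 in COV318. The order of the lines does not depend on the gene lengths, but the side of 1 does, since with the longest transcript as length the ratio was 0.341 to 0.477 in OVCAR3 and 0.889 to 1.08 in COV318. COL4A5 over COL4A6 was 21.2, 7.33, 31.4 and 13.5 in OVCAR3 and 5.59, 1.53, 9.91 and 1.87 in COV318, lower in each MGP-manipulated library than in its control, and the lines overlapped. COL9A2 over COL9A3 was 14.4, 17.6, 39.4 and 30.0 in OVCAR3, within which COV318-CTR bulk lay. It was 20.0 and 3.72 in COV318-CTR bulk and OCSC and 0.253 and 0.159 in COV318-MGP.

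COL17A1, COL24A1 and COL28A1 reached 50 counts but not 200 normalized counts, as did COL4A3, COL6A5, COL13A1 and COL19A1, which are described above. COL17A1 had 7.71, 36.8, 20.5 and 62.1 normalized counts in OVCAR3 and at most 14.9 in COV318. COL28A1 had 40.1, 80.4, 32.7 and 49.0 in OVCAR3 and between 4.29 and 50.5 in COV318. COL24A1 had 9.25, 16.1, 70.9 and 67.3 in OVCAR3 and 31.8, 171, 128 and 122 in COV318. Of the 6 members under 50 counts everywhere, COL10A1 reached 23 counts in COV318-CTR bulk, COL6A6 43 in COV318-MGP bulk, COL5A3 21 in COV318-MGP OCSC and COL15A1 17 in COV318-CTR bulk.

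Genes that modify, fold, process and cross-link collagen or bind it were listed too, and 49 of the 52 listed were in the table. In COV318-MGP bulk 44 were tested, 14 higher and 13 lower, where 21.9% and 24.3% of all tested genes were called. In OCSC 40 were tested, 17 higher and 9 lower, where 23.7% and 23.4% of all tested genes were called. FKBP10, a folding enzyme of the endoplasmic reticulum, had 48 and 7653 counts in COV318-CTR and COV318-MGP bulk and 6 and 3554 in OCSC, with log2FC of 7.29 and 9.0. DDR2, a receptor for fibrillar collagen, had 81 and 14759 counts in bulk cells and 32 and 2252 in OCSC, with log2FC of 7.51 and 6.05. SPARC, a collagen-binding glycoprotein, had 693 and 5825 counts in bulk cells and 12 and 3548 in OCSC, with log2FC of 3.10 and 8.08. These 3 genes of collagen handling were thus higher in both COV318-MGP libraries. PCOLCE2 (6.82 in bulk cells and 6.08 in OCSC) and PCOLCE (2.36 and 3.37), enhancers of propeptide removal, were also higher, as were the prolyl hydroxylase family member P3H3 (4.38 and 5.70), the cross-linking oxidase LOXL2 (2.81 and 4.68) and the collagen-binding integrin chain ITGA2 (3.16 and 4.31). ADAMTS2, the protease that removes the N-propeptide, had 2 and 345 counts in bulk cells and 0 and 115 in OCSC. PXDN, which cross-links type IV collagen, was lower, with 6643 and 101 counts in bulk cells and 2214 and 27 in OCSC, log2FC of -5.98 and -6.38. PLOD3 (-3.06 and -2.13), a lysyl hydroxylase and glucosyltransferase, and TLL1 (-3.59 and -2.56), a procollagen protease, were lower too. FMOD, a fibril-binding proteoglycan, had 52 and 0 counts in bulk cells and 114 and 1 in OCSC. In bulk cells P3H2 (-5.27), LOX (-2.32) and TLL2 (-2.26) also passed 2 in size downward, where OCSC had -1.43, 0.64 and -1.68. LOXL1 (-3.17), BGN (-4.45 from 61 and 1 counts), P4HA3 (2.50) and ITGA10 (2.61) did so in bulk cells too and were under 50 counts in OCSC, LOXL1 with 39 and 4 counts, BGN with 3 and 2, P4HA3 with 0 and 14 and ITGA10 with 18 and 14. In OCSC ADAMTS3 (2.02), FBLN1 (2.34) and ITGA1 (2.44) passed 2 upward, where bulk cells had 1.61, 1.84 and -0.44.

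In OVCAR3-MGPKO bulk 36 genes of this list were tested, 8 higher and 1 lower, where 8.97% and 6.34% of all tested genes were called. In OCSC 37 were tested, with 2 higher and 4 lower, where 4.01% and 3.89% of all tested genes were called. ADAMTS3 (2.96), ITGA2 (2.19), LOXL2 (2.18) and SEC24D (2.07), a coat protein of the vesicles that export procollagen, were higher by at least 2 in bulk cells. MIA2, an export factor, was lower (-2.37), with 1689 and 439 counts. Among the tested genes of the list none passed 2 in size in OVCAR3-MGPKO OCSC, where ADAMTS3, with 2 and 42 counts, was under the minimum of 50. Between cultures, 8 were higher and 4 lower of 36 tested in OVCAR3-CTR OCSC (12.6% and 7.36% of all tested genes), and 3 and 7 of 40 in OVCAR3-MGPKO (6.51% and 5.21%). In COV318-CTR 1 was higher and 17 lower of 37 (5.83% and 8.05%), so that lower calls outnumbered higher ones in this list, among the collagens and over all tested genes. In COV318-MGP 2 were higher and 3 lower of 41 (6.72% and 6.42%).

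For the leading collagen gene of each line by summed normalized counts, the genes with the most similar levels over the 8 libraries were found over 12213 genes that reached 200 normalized counts somewhere. For COL18A1, the leader in OVCAR3, Pearson r of log2(normalized count + 1) was 0.997 with DPP7, 0.992 with EZR and 0.992 with KIAA2013. For COL4A1, the leader in COV318, it was 0.983 with PTX3, 0.982 with ZNF665 and 0.978 with PCDHGA2. The 8 points share lines and cultures, and these values are descriptions.

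Some values carry an uncertainty from overlapping genes, since the strand setting of the counting is not given in the sources used here. In the GENCODE annotation 18.5% of the exonic bases of COL18A1 were shared with SLC19A1 on the opposite strand. SLC19A1 had 96.6 to 1056 normalized counts in the 8 libraries, and in COV318-MGP it was near COL18A1, with 356 against 543 in bulk cells and 301 against 352 in OCSC. COL4A3 shared 6.82% with MFF-DT, COL9A3 3.20% with TCFL5, COL16A1 1.26% with PEF1-AS1 and COL19A1 0.77% with LMBRD1.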

How the data were processed

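RNA of 8 cultures, 1 library per condition, was sequenced as paired 50-base reads. The authors aligned reads to hg38 with STAR (2.7.5c in the submitters' processing notes), deposited the STAR gene counts, and deposited values they had scaled by the median of ratios of DESeq2, a normalized signal that divides each count by a size factor. The methods name several kits, some of them strand-specific, but not which made these libraries. The annotation release and the strand setting of the counting are not given in the sources used here. Here size factors were recomputed from the counts over 15518 genes above 0 in every library. The recomputed values equalled the deposited normalized signal to its printed precision, and every gene of the table reached 10 counts in at least 1 library.

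Fold changes were log2 of normalized counts plus 1. A gene was tested at 50 counts or more in the higher library and called at a log2FC of 1 in size. Intervals are 95% Clopper-Pearson intervals of the count ratio. A library at 0 was given a floor of 3 counts. Folds given as at least a value were computed against this floor and are not limits of the counting interval. Lengths are exon unions of GENCODE 44. Tools were Python 3.11.15 with pandas 2.3.3, numpy 2.4.6, scipy 1.17.1 and matplotlib 3.10.9, and edgeR 4.0.16 in R 4.3.3 for TMM factors only. The fold and interval steps were tested on simulated counts. Groups came from the labels.

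Members with 200 normalized counts in 1 library, or called with a log2FC of 3 in size, were given by library, and genes of the collagen machinery list were named when called with a log2FC of 2 in size in an MGP comparison. Also named were MGP, markers, and the 3 genes most correlated with the leading member of each line. The members and lists were chosen with earlier results of these data known. Alternatives were TMM, CPM and within-pair scaling, the deposited values, 0.5 or 10 in place of the added 1, a minimum of 10, 200 or 0 counts, a log2FC of 2, an interval wholly beyond 1, and other gene lengths. Size factors without the COV318-MGP libraries were added after seeing the data.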

Additional observations from a re-analysis of the deposited data

Results flagged for a closer look

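A pair of collagen genes differed in opposite directions between the cultures of the 2 control lines. COL8A1 had a log2FC of OCSC against bulk of 4.07 in OVCAR3-CTR and -1.01 in COV318-CTR. In COV318-CTR the interval was -1.69 to -0.42, the counts were 146 and 26, and the log2FC ran from -1.02 to -0.87 over the alternatives. COL9A2 had a log2FC of 1.46 in OVCAR3-CTR and -2.55 in COV318-CTR, with 475 and 2159 counts in the former and 7553 and 466 in the latter. The difference between the lines was not tested, because each condition has 1 library.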

How the results depend on the processing

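All 969 recomputed log2FC of 145 called values kept their sign, and 899 stayed within the counting interval. Of 117 recomputed counts of called members, 99 stayed within 1.5 times, including those with TMM, CPM, within-pair factors, the deposited values, another pseudocount or size factors without the COV318-MGP libraries. CPM moved all log2FC by up to 0.30 and TMM by up to -0.12. Some genes with 0 or 1 count in a library moved further. Over the alternatives COL11A1 ran from -12.5 to -9.21 for MGP against CTR in COV318 bulk. For MGPKO against CTR in OVCAR3 OCSC it ran from 3.88 to 6.73. COL13A1 ran from 3.88 to 8.11 for MGP against CTR in COV318 OCSC. The other 18 counts of called members came from thresholds, which by construction admit or drop genes. For MGPKO against CTR in OVCAR3 bulk the 7 calls became 12 with a minimum count of 10, 19 with none and 3 at a log2FC of 2. For OVCAR3 OCSC the 9 became 15 with no minimum, 5 with a minimum of 200, 1 at a log2FC of 2 and 4 with the interval wholly beyond 1. For MGP against CTR in COV318 OCSC the 18 became 29 with a minimum of 10 and 33 with none. For OCSC against bulk, the 11 calls in OVCAR3-CTR became 19 with no minimum and 5 at a log2FC of 2, the 16 in OVCAR3-MGPKO became 4 at a log2FC of 2, the 13 in COV318-CTR became 25 with no minimum and 7 at a log2FC of 2, and the 4 in COV318-MGP became 7 with a minimum of 10, 9 with none, 1 at a log2FC of 2 and 1 with the interval wholly beyond 1. No paired analysis was possible because each condition has 1 library and no result comes from a test. Depth of 12294591 counts in the shallowest library limits members near the floor of 3 counts.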
